A study of Mus with 96 samples.

Results

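The 10 genes described here belong to the unfolded protein response of the endoplasmic reticulum (ER). They are the chaperones and folding factors Hspa5, Hyou1, Dnajb9, Sdf2l1, Creld2, and Pdia4, the transcription factor Xbp1, and the stress regulators Atf4, Ddit3, and Trib3. They were picked out of the table of read counts by gene name, with no threshold on measured values, as a set drawn up with earlier results of these data known, and all 10 were among the 15548 genes tested of the 55487 genes listed. Livers of 96 mice were profiled by BRB-seq, a pooled RNA sequencing method in which each sample carries its own barcode and the 3′ end of each mRNA is read. All mice were C57BL/6J animals of 8 to 10 weeks carrying floxed alleles of Bmal1 (Bmal1 flx/flx). The Hep-Bmal1KO mice (KO) also carried a Cre recombinase driven by the albumin promoter, used to delete Bmal1 in hepatocytes, and the Hep-Bmal1WT mice (WT) lacked Cre. Of each genotype, 24 mice received normal chow (NC; 27% protein, 14% fat, and 59% carbohydrate) and 24 were put for 2 weeks on cdHFD, a high-fat diet without choline (fat 60%, carbohydrate 31%, protein 9%, cholesterol 2%, methionine 0.17%), under 12 hours of light and 12 hours of darkness. Each of the 4 arms (WT or KO on NC or cdHFD) held 24 mice, 4 at each of Zeitgeber times (ZT, hours after lights on) 2, 6, 10, 14, 18, and 22. Of the 24 groups, 23 held 2 mice of each sex, and the WT group on cdHFD at ZT14 held 1 female and 3 males.

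The unfolded protein response adjusts the folding capacity of the ER to the load of secretory and membrane proteins, which is high in hepatocytes. Its sensors are IRE1, which splices the mRNA of Xbp1 into the form that encodes the active factor, PERK, which phosphorylates the initiation factor eIF2α and so favours translation of ATF4, and ATF6, which is cleaved in the Golgi and, with XBP1, turns on ER chaperones. ATF4 in turn drives Ddit3, which encodes CHOP, and Trib3, also when amino acids are short or mitochondria are stressed, a wider program called the integrated stress response. In mouse liver, several of these genes are known for rhythms with a period of 12 hours as well as for rhythms of a full day. Reads from the 3′ end cannot tell spliced from unspliced Xbp1, so the IRE1 branch was read here only through the total level of Xbp1 and the mRNA of its targets.

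Libraries held 1861740 to 9718615 gene counts (median 6412078). Hyou1 was the most thinly covered member at 19 to 94 counts per library, Trib3 ranged from 3 to 1262 counts, and a second entry named Ddit3 had 0 counts in all libraries and was not used. Values are counts scaled to a common library total (CPM) after edgeR's TMM scaling, and the 4 mice of a group are separate animals by label. Arntl, the gene name of Bmal1, is read at its 3′ end, which may lie outside the deleted part, and its average level did not pass the test between the labels on NC (log2 fold change 0.02, SE 0.25, adjusted p = 0.98) or cdHFD (-0.50, SE 0.20, adjusted p = 0.10). Its daily range was wider in WT, with group means from 0.748 to 20.2 CPM in WT and from 5.74 to 9.83 CPM in KO on NC. By clock genes as well as by 20 other genes, 7 of the 96 libraries (4 on NC and 3 on cdHFD) lay nearer the other genotype label at their own diet and ZT. These 7 are called discordant libraries below and stayed under their labels unless stated. The value without them stands beside a result where given, and values given only with all libraries can also differ without them. Each numbered column of library names held a single genotype and diet and adjacent ZTs only, so the column cannot be told apart from the groups or, in part, from the time of day.

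Hspa5, Creld2, and Sdf2l1 followed a daily rhythm on NC, with high levels during the night in WT as in KO. The trough lay at ZT10, late in the light phase, in both genotypes for Hspa5 and Creld2 and in WT for Sdf2l1. Hspa5 (ENSMUSG00000026864, chromosome 2, 34772090 to 34776529 in GRCm38.p6) encodes BiP, the main ER chaperone of the Hsp70 family and the factor that holds the sensors inactive. In WT on NC at ZT10 its values in the 4 mice were 175, 181, 207, and 272 CPM, and at ZT14 they were 361, 394, 773, and 903 CPM. In KO on NC the values were 165, 193, 219, and 223 CPM at ZT10 and 572, 582, 615, and 738 CPM at ZT18, the highest group. The ZT10 values of both genotypes overlapped, and in each genotype all 4 mice at the trough lay below all 4 at the peak. The peak group exceeded the trough group 2.91-fold in WT and 3.13-fold in KO.

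Creld2 (ENSMUSG00000023272, chromosome 15, 88819646 to 88826681), a secreted ER stress-induced protein with disulfide isomerase activity, swung further. Its group mean moved between 22.4 ± 9.93 CPM at ZT10 and 101 ± 44.5 CPM at ZT14 in WT (SD, n = 4), and between 19.2 ± 4.17 CPM at ZT10 and 78.9 ± 17.6 CPM at ZT18 in KO. Sdf2l1 (ENSMUSG00000022769, chromosome 16, 17130138 to 17132383), a partner of the ER Hsp40 proteins that works with BiP, was lowest at ZT10 (28.6 ± 4.94 CPM) and highest at ZT18 (82.02 ± 16.2 CPM) in WT. In KO its 4 mice at ZT10 spread from 14.4 to 74.7 CPM, and the lowest of them was a discordant library, without which the mean was 50.5 CPM at ZT10 and 40.5 CPM at ZT6 (n = 3 each), the lowest group. Dnajb9 (ENSMUSG00000014905, chromosome 12, 44205897 to 44210068), the BiP co-chaperone ERdj4 and an XBP1 target, had 29.7, 33.6, 34.9, and 45.2 CPM at ZT10 and 103, 104, 148, and 173 CPM at ZT14 in WT, again without overlap between groups picked as lowest and highest. Hyou1 (ENSMUSG00000032115, chromosome 9, 44379490 to 44392369), the large Hsp70 relative GRP170, ranged over the group means from 7.46 to 11.5 CPM in WT and from 5.84 to 14.7 CPM in KO. Pdia4 (ENSMUSG00000025823, chromosome 6, 47796141 to 47813512), the disulfide isomerase ERp72, was nearly flat, with group means from 133 to 157 CPM in WT and from 146 to 168 CPM in KO.

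**Figure D1:**
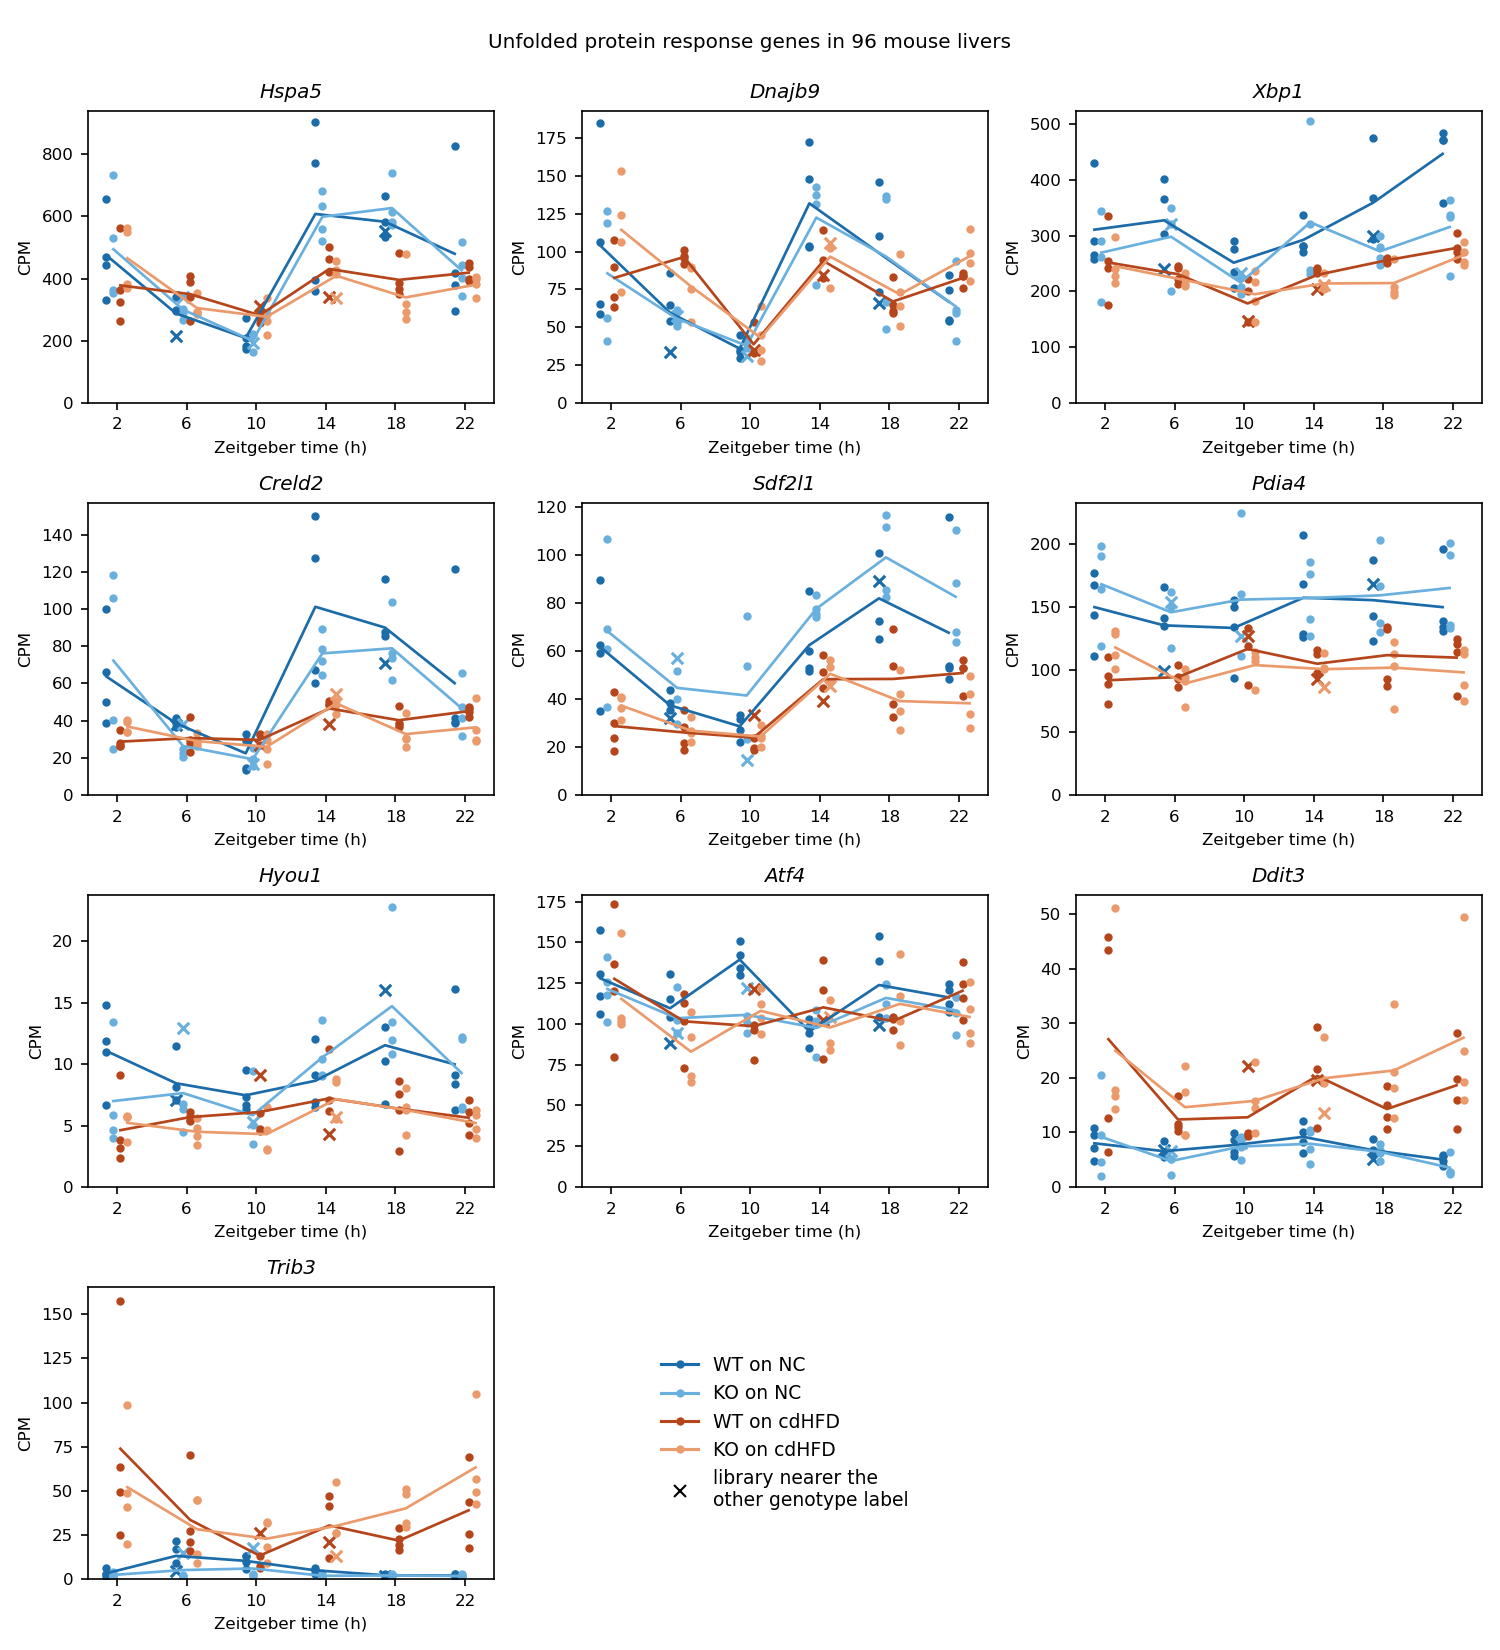
Expression (CPM) of the 10 genes by ZT on NC and cdHFD; points are mice, lines are means of 4 mice, and crosses are discordant libraries. Hspa5 was lowest at ZT10 in all 4 arms, and Trib3 and Ddit3 stood higher on cdHFD than on NC.

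A daily rhythm was called where the unadjusted p was under 0.01 by 1 or more of JTK_CYCLE, edgeR's test of 24-hour terms, and a cosinor fit, and the amplitude is the distance from mesor to peak on the log2 scale of the variance-stabilized values. In WT on NC, 5 of the 10 genes passed, against 22.5% of all genes tested. These were Hspa5 (amplitude 0.62, SE 0.15, peak at ZT19.5), Xbp1 (0.31, SE 0.08, ZT21.7), Creld2 (0.72, SE 0.20, ZT18.9), Sdf2l1 (0.62, SE 0.12, ZT19.9), and Trib3 (0.93, SE 0.14, ZT8.57). Trib3 therefore peaked in the light phase, when the chaperones were low. In KO on NC, 4 of 10 passed, against 11.1% of all genes: Hspa5 (amplitude 0.62, ZT19.3), Creld2 (0.78, ZT19.1), Sdf2l1 (0.66, ZT19.5), and Hyou1 (0.44, ZT17.8). Dnajb9 and Pdia4 as well as Atf4 and Ddit3 passed in neither genotype on NC. Hspa5, Creld2, and Sdf2l1 were rhythmic in both genotypes, and their amplitudes differed between KO and WT by 0.003 (SE 0.20), 0.07 (SE 0.28), and 0.04 (SE 0.19). Their peak times differed by -0.20 h (SE 1.23), 0.20 h (SE 1.45), and -0.42 h (SE 1.13). None of these differences passed an unadjusted p of 0.05 in the CircaCompare model, the rule used for amplitude and phase here, and the standard errors leave room for shifts of more than 2 hours. By this rule 0 of 3 members changed phase between the genotypes on NC, against 13.3% of the genes rhythmic in both.

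A component with a period of 12 hours passed on NC for Dnajb9 in WT alone and for Hspa5 and Creld2 in KO alone. In WT the mean of Dnajb9 rose a second time, from 66.9 ± 15.0 CPM at ZT22 to 104 ± 58.1 CPM at ZT2 (SD, n = 4). Tested with edgeR beside the 24-hour terms, 1 of 10 members passed an adjusted p of 0.05 in WT, where 0.598% of all genes did, and 2 of 10 in KO, where 0.161% did. In WT this was Dnajb9 (amplitude 0.73 on the log2 scale, adjusted p = 0.029), with maxima at ZT3.0 and 12 hours later. In KO these were Hspa5 (0.52, maximum at ZT3.3, adjusted p = 0.014) and Creld2 (0.76, ZT2.9, adjusted p = 0.033). The same genes in the other genotype had similar amplitudes that did not pass, 0.61 for Dnajb9 in KO (adjusted p = 0.10), 0.44 for Hspa5 in WT (adjusted p = 0.095), and 0.65 for Creld2 in WT (adjusted p = 0.060). The difference between genotypes in this component was not tested. With 6 ZTs there were 3 time points per 12-hour cycle, and the test cannot tell a 12-hour rhythm from a 24-hour profile that is not a cosine. Leaving out 1 replicate of each group in turn left 0 to 2 calls in WT and 0 in KO, and without the discordant libraries only Hspa5 passed in KO.

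**Figure D2:**
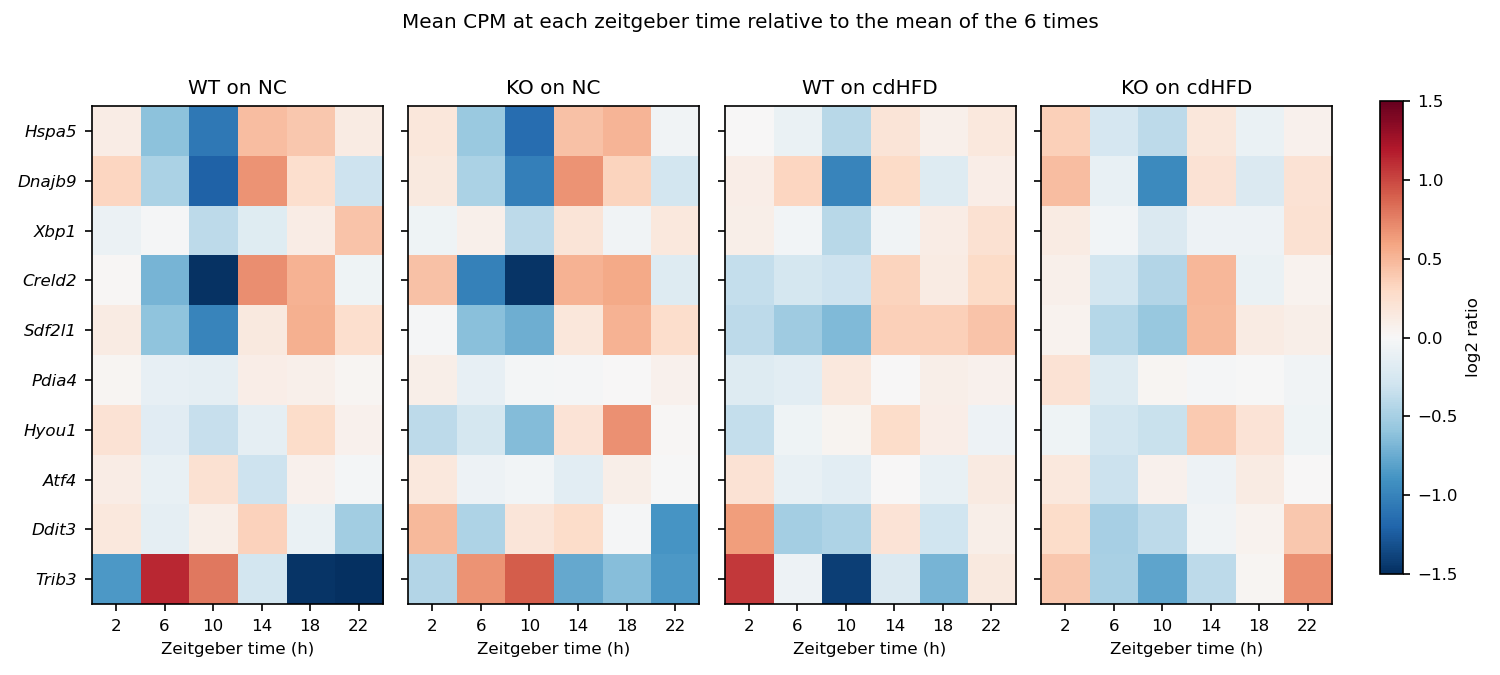
Daily profiles of the 10 genes in the 4 arms; colour gives the log2 ratio of each ZT mean of 4 mice to the mean of the 6 ZT means, limited to 1.5 in either direction. On NC, Hspa5, Dnajb9, and Creld2 share a minimum at ZT10 in both genotypes, and the maximum of Trib3 in WT lies at ZT6 on NC and at ZT2 on cdHFD.

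On NC, loss of Bmal1 in hepatocytes went with a lower level of Trib3 and left the chaperones without a called difference. Averaged over the day, 0 of 10 members were higher in KO, against 7% of all genes tested, and 1 was lower, against 5.61%. The median log2 fold change of the members was -0.11, and that of all genes -0.01. Trib3 (ENSMUSG00000032715, chromosome 2, 152337425 to 152344060) encodes a pseudokinase induced by ATF4 and CHOP that restrains AKT signalling. It ranged from 1.07 to 21.8 CPM with a median of 3.70 in the 24 WT livers and from 0.696 to 17.5 CPM with a median of 1.92 in the 24 KO livers. The ranges overlapped, and the fitted level was 0.59 times that of WT (log2 fold change -0.76, SE 0.26, adjusted p = 0.045, edgeR quasi-likelihood test). The call did not hold in all settings: the adjusted p was 0.024 with DESeq2 and 0.0645 without the library of lowest depth (log2 fold change -0.72), and with 1 replicate of each group left out in turn it ran from 0.0058 to 0.29. In males alone the log2 fold change was -1.35 (adjusted p = 0.0022) and in females alone -0.44 (adjusted p = 0.54), and the difference between the sexes was not tested.

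The mice behind the Trib3 values at its daily peak fell into a plain pattern. At ZT6 the WT livers had 4.40, 9.14, 17.3, and 21.8 CPM and the KO livers 1.38, 1.58, 2.44, and 15.0 CPM. At ZT10 the WT livers had 5.54, 9.55, 13.04, and 13.1 CPM and the KO livers 1.26, 2.54, 2.72, and 17.5 CPM. In each KO group 3 of the 4 mice lay below all WT mice and 1, a female, lay far above the others. The KO livers with 15.0 and 17.5 CPM were the 2 discordant libraries of KO on NC, and the WT liver with 4.40 CPM, the lowest at ZT6, was also discordant. Trib3 was not among the genes used to call a library discordant. Leaving libraries out because they went against their label still favours larger differences between the labels, here and below. Over all genes on NC, 1439 were called higher and 1217 lower in KO without these libraries, against 1088 and 872 with them. Without the 4 discordant libraries of NC, Trib3 ran from 0.696 to 3.81 CPM in KO (n = 22), and the log2 fold change was -1.24 (SE 0.25, adjusted p = 0.00021). At single ZTs, 0 of 60 tests of the 10 members passed on NC in edgeR (4 at an unadjusted p under 0.05), where 4.1% of all genes passed at 1 or more ZTs. Without the discordant libraries, 3 passed, namely Trib3 at ZT6 (log2 fold change -3.12) and ZT10 (-2.22), and Atf4 at ZT10 (-0.48). The share of all genes passing at single ZTs without these libraries is not given here.

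The daily amplitude of Trib3 followed the same line. It was 0.93 in WT and 0.33 in KO on NC, a difference of -0.60 (SE 0.24, unadjusted p = 0.016, n = 24 per label, adjusted p = 0.29). This was the only 1 of the 6 members tested, those rhythmic in at least 1 genotype, that passed the unadjusted threshold, against 14.2% of such genes. Without the discordant libraries the KO amplitude was 0.04 and the difference -0.95 (SE 0.17, unadjusted p = 3.1e-06, n = 22 per label), and Hyou1 then passed as well with a larger amplitude in KO (0.36, SE 0.16, unadjusted p = 0.028, n = 22 per label).

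**Figure D3:**
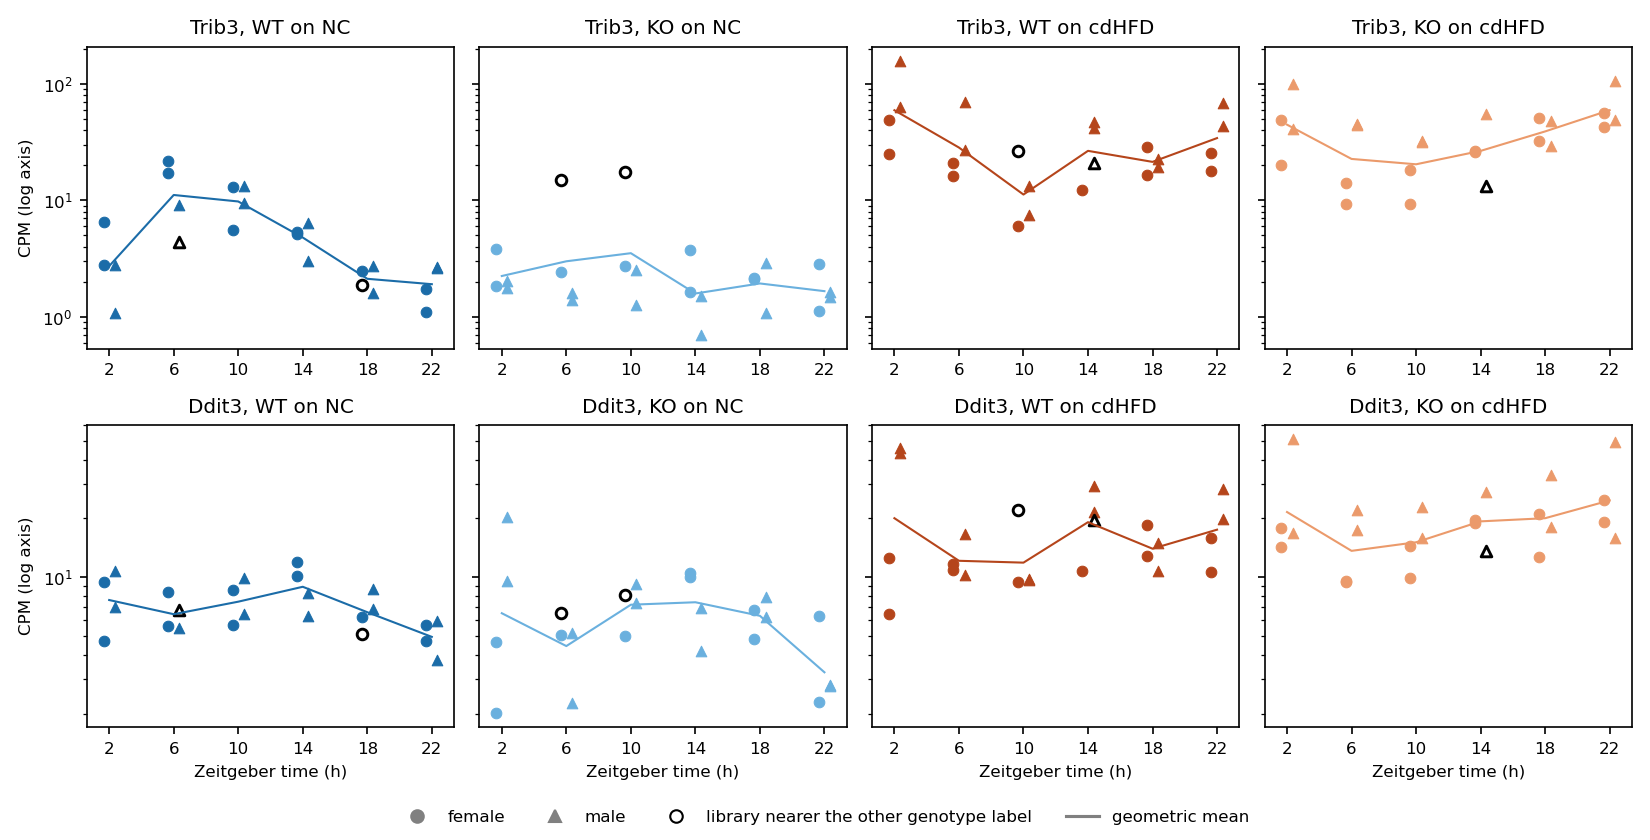
Trib3 and Ddit3 (CPM, log axis) in each mouse by ZT in the 4 arms; circles are females, triangles males, open black symbols discordant libraries, and lines geometric means of 4 mice. In KO on NC, the mice with 15.0 and 17.5 CPM of Trib3 at ZT6 and ZT10 are discordant libraries.

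The other members showed smaller differences on NC that did not pass. Xbp1 (ENSMUSG00000020484, chromosome 11, 5520641 to 5525993) encodes the transcription factor of the IRE1 branch, which drives chaperone and secretory pathway genes. At ZT22, its highest group in WT, the 4 mice had 358, 472, 472, and 485 CPM in WT and 228, 333, 337, and 364 CPM in KO. All but 1 of the WT mice exceeded every KO mouse at this ZT. Over the day the log2 fold change of Xbp1 was -0.22 (SE 0.09, adjusted p = 0.084). It passed without the discordant libraries (-0.26, adjusted p = 0.037), with sex as a covariate (-0.23, adjusted p = 0.043), in females alone (-0.38, adjusted p = 0.018), and without replicate 2 of each group (-0.31, adjusted p = 0.012), and not in males alone (-0.07, adjusted p = 0.80). Sdf2l1 had a log2 fold change of 0.30 (adjusted p = 0.12), Creld2 -0.26 (adjusted p = 0.28), and Hspa5 -0.01 (SE 0.10, adjusted p = 0.98). Atf4 (ENSMUSG00000042406, chromosome 15, 80255184 to 80257545), the central factor of the integrated stress response, which is controlled largely at translation, had a log2 fold change of -0.12 (SE 0.06, adjusted p = 0.16). At ZT10, all 4 WT livers (130 to 151 CPM) exceeded all 4 KO livers (94.6 to 122 CPM) in Atf4. Ddit3 (ENSMUSG00000025408, chromosome 10, 127290793 to 127296291), which encodes CHOP, a factor that promotes cell death under lasting ER stress, had -0.17 (adjusted p = 0.59).

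More members passed with the diet than with the genotype, as more of all genes did, and they moved in opposite directions. After 2 weeks of cdHFD, Xbp1 and 4 of the 6 chaperone and folding genes were lower and Ddit3 and Trib3 were higher, in WT as in KO. These values carry the TMM scaling, whose factors ran from 0.766 to 0.929 on NC and from 1.04 to 1.35 on cdHFD. The scaling lowers values on cdHFD relative to shares of all gene counts, so the size of the falls depends on it. Diet differences as shares of gene counts were not tested. By edgeR's test with ZT as a factor, 5 of 10 members fell in WT, against 27% of all genes tested, and 2 rose, against 28.7%. In KO, 5 fell, against 29.6%, and 2 rose, against 32.4%, and these were the same 7 genes. The median log2 fold change of the members was -0.30 in WT and -0.26 in KO, against 0.01 and 0.02 over all genes.

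**Figure D4:**
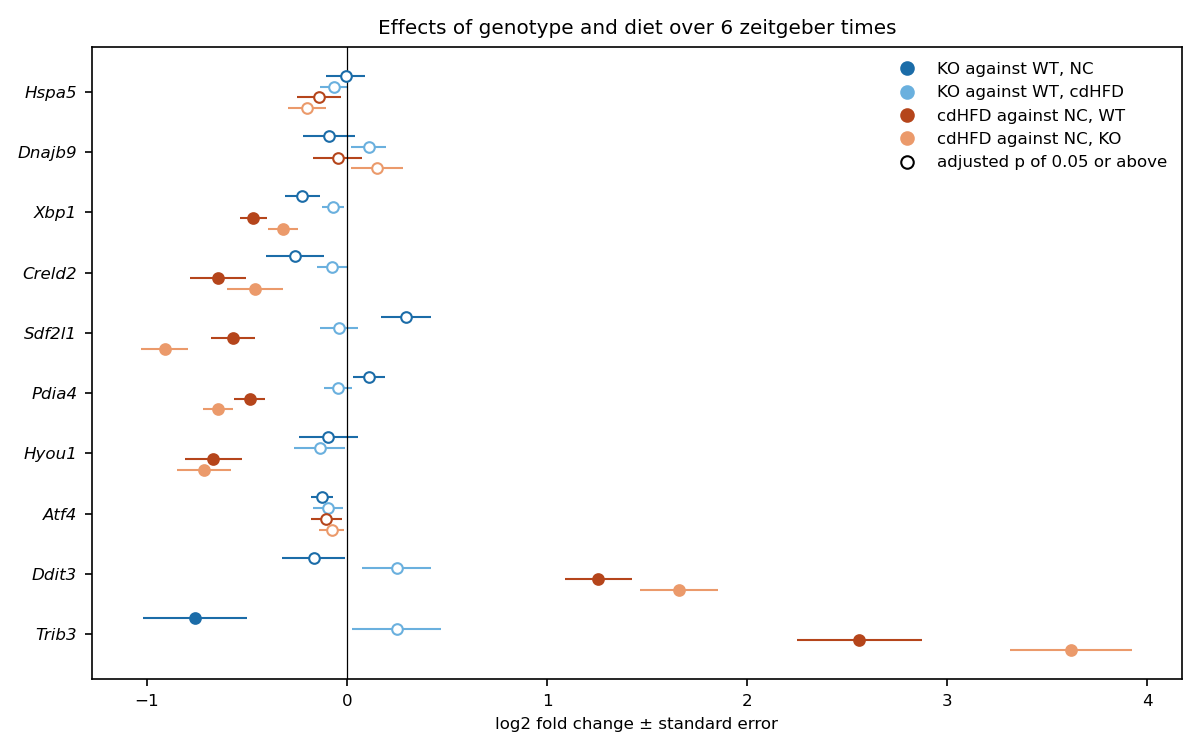
Log2 fold changes of the 10 genes with their standard errors for KO against WT on each diet and for cdHFD against NC in each genotype (n = 24 mice per arm); open symbols did not pass an adjusted p of 0.05. The diet values of Ddit3 (1.26 and 1.66) and Trib3 (2.56 and 3.62) lie far to the right, and those of Creld2, Sdf2l1, Pdia4, Hyou1, and Xbp1 lie below 0.

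Pdia4, Sdf2l1, Hyou1, and Xbp1 had lower means on cdHFD than on NC at all 6 ZTs in both genotypes. Pdia4 ranged from 93.5 to 207 CPM (median 142) on NC and from 72.6 to 134 CPM (median 101) on cdHFD in WT, and from 111 to 225 CPM (median 157) and 68.9 to 131 CPM (median 102) in KO. At 3 of the 6 ZTs in WT (4 without the discordant libraries) and 4 of 6 in KO, all mice on cdHFD lay below all mice on NC. Its log2 fold change was -0.49 (SE 0.08, adjusted p = 3.2e-07) in WT and -0.64 (SE 0.08, adjusted p = 2.3e-10) in KO. Sdf2l1 fell by 0.57 (SE 0.11, adjusted p = 2.0e-05) in WT and by 0.91 (SE 0.12, adjusted p = 2.4e-09) in KO on the log2 scale. Hyou1 fell by 0.67 (SE 0.14) in WT and by 0.72 (SE 0.13) in KO, from medians of 8.77 and 9.09 CPM to 5.88 and 5.66 CPM. Xbp1 fell by 0.47 (SE 0.07) in WT and by 0.32 (SE 0.08) in KO, where it did not pass in females alone (-0.16, adjusted p = 0.12). In WT the ratio of its mean on cdHFD to that on NC lay between 0.622 and 0.810 at all 6 ZTs.

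For Creld2 and Hspa5 the ratio of the means on both diets lay on either side of 1 over the ZTs, as it did for Dnajb9 (0.677 to 1.62 in WT), and its dependence on ZT was not tested. Creld2 fell by 0.64 (SE 0.14, adjusted p = 0.00011) in WT and by 0.46 (SE 0.14, adjusted p = 0.0038) in KO over the day, but the ratio of its means on cdHFD and NC ran from 0.447 at ZT18 to 1.32 at ZT10 in WT and from 0.415 to 1.35 at the same ZTs in KO (1.29 at ZT10 without the discordant libraries). In females alone Creld2 did not pass in WT (-0.42, adjusted p = 0.057) or in KO (-0.18, adjusted p = 0.43), and in KO it also did not pass without replicate 1 of each group (-0.36, adjusted p = 0.058). Hspa5 did not pass over the day (-0.14, SE 0.11, adjusted p = 0.28 in WT; -0.20, SE 0.09, adjusted p = 0.062 in KO), and its ratio likewise ran from 0.679 at ZT18 to 1.35 at ZT10 in WT and from 0.541 to 1.38 in KO. At ZT18 the 4 WT mice had 349, 366, 384, and 484 CPM of Hspa5 on cdHFD and 532, 552, 581, and 666 CPM on NC, without overlap. At ZT10 the order was the other way for most mice, with 257, 271, 289, and 312 CPM on cdHFD and 175, 181, 207, and 272 CPM on NC. Dnajb9 had log2 fold changes of -0.05 (SE 0.12) in WT and 0.15 (SE 0.13) in KO, and Atf4 -0.10 (SE 0.08) and -0.08 (SE 0.06), none of which passed.

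The fitted daily amplitudes of Hspa5 and Creld2 were smaller on cdHFD. The amplitude of Hspa5 was 0.62 on NC and 0.22 on cdHFD in WT, a difference of -0.40 (SE 0.17, unadjusted p = 0.024, n = 24 per diet, adjusted p = 0.18), and 0.62 and 0.20 in KO, a difference of -0.43 (SE 0.16, unadjusted p = 0.010, n = 24 per diet, adjusted p = 0.16). Creld2 went from 0.78 to 0.19 in KO (difference -0.59, SE 0.22, unadjusted p = 0.010, n = 24 per diet, adjusted p = 0.16) and from 0.72 to 0.34 in WT (difference -0.38, SE 0.21). By the unadjusted threshold 1 of 5 members changed amplitude with diet in WT, against 22.3% of the genes tested, and 2 of 6 in KO, against 19.7%. Without the discordant libraries Hspa5 in WT was at -0.38 (SE 0.19, unadjusted p = 0.050, n = 22 per diet) and no longer passed, and 4 of the members tested in KO passed. The shares of all genes whose amplitude passed without these libraries are not given here. A daily rhythm was called on cdHFD for 4 of 10 members in WT, against 18.7% of all genes, and 3 of 10 in KO, against 10.3%. In WT these were Xbp1 (peak at ZT21.7), Creld2 (ZT17.7), Sdf2l1 (ZT18.5), and Trib3, the last by edgeR's test alone, and in KO Xbp1 (ZT23.3), Sdf2l1 (ZT18.5), and Trib3. In WT the peak times of Xbp1, Creld2, and Sdf2l1 on cdHFD differed from those on NC by -0.02 h (SE 1.36), -1.21 h (SE 1.89), and -1.34 h (SE 1.02). The 12-hour component passed for 0 of 10 members in WT on cdHFD (0.701% of all genes; 3 members at an unadjusted p under 0.05) and for Hspa5, Dnajb9, and Sdf2l1, 3 of 10, in KO on cdHFD (2.84% of all genes; adjusted p = 0.040, 0.047, and 0.046). Without the 1 discordant library of that arm, none of these 3 passed (adjusted p = 0.067, 0.11, and 0.084).

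Trib3 showed the largest change with diet of the 10 members. In WT it rose from a median of 3.70 CPM (1.07 to 21.8 CPM) on NC to 25.2 CPM (6.01 to 158 CPM) on cdHFD, and in KO from 1.92 CPM (0.696 to 17.5 CPM) to 36.7 CPM (9.23 to 105 CPM). The fitted change was 5.90-fold in WT (log2 fold change 2.56, SE 0.31, adjusted p = 8.2e-10) and 12.3-fold in KO (3.62, SE 0.31, adjusted p = 7.4e-15). It was 5.91-fold in WT (2.56, SE 0.34) and 19.8-fold in KO (4.30, SE 0.23) without the discordant libraries. At 4 of 6 ZTs in each genotype all mice on cdHFD exceeded all mice on NC. In KO the overlap at ZT6 and ZT10 came from the discordant NC libraries at 15.0 and 17.5 CPM, and without them all 6 ZTs were separate, with NC maxima of 2.44 and 2.72 CPM and cdHFD minima of 9.29 and 9.23 CPM at those ZTs. The ratio of the means ran from 1.28 at ZT10 to 22.4 at ZT2 in WT and from 3.81 at ZT10 to 35.9 at ZT22 in KO, and its dependence on ZT was not tested. With all 7 discordant libraries left out, the means at ZT10 were 10.3 CPM on NC and 8.91 CPM on cdHFD in WT, a ratio of 0.864 in the other direction, and 2.17 and 22.9 CPM in KO, a ratio of 10.5.

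The time of the Trib3 peak in WT also differed between the diets. On NC the 4 WT mice at ZT2 had 1.07, 2.80, 2.80, and 6.53 CPM of Trib3, and on cdHFD they had 24.9, 49.2, 63.6, and 158 CPM, the highest group of that arm. At ZT10, near the peak on NC, WT mice on cdHFD had 6.01, 7.50, 13.2, and 26.3 CPM, the lowest group of that arm, and overlapped those on NC. The fitted peak in WT moved from ZT8.57 to ZT0.36, a shift of -8.20 h (SE 1.35, unadjusted p = 3.2e-07, n = 24 per diet, adjusted p = 5.9e-06). The shift lay between -9.39 h and -7.68 h with 1 replicate of each group left out in turn, and Trib3 was not called rhythmic on both diets without replicate 1 or replicate 4. This was 1 of the 4 members rhythmic on both diets in WT, against 45.6% of all such genes. In KO, Trib3 peaked at ZT22.0 on cdHFD and was not rhythmic on NC, so no shift was tested. Of the KO members, Sdf2l1 alone was rhythmic on both diets, and its phase did not pass (0 of 1, against 42.6% of all such genes).

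Ddit3 rose with the diet as well. Its median moved from 6.61 CPM (3.76 to 12.0 CPM) to 13.9 CPM (6.48 to 45.8 CPM) in WT and from 6.29 CPM (2.01 to 20.4 CPM) to 17.98 CPM (9.49 to 51.05 CPM) in KO. The change was 2.39-fold in WT (log2 fold change 1.26, SE 0.17, adjusted p = 5.6e-09) and 3.16-fold in KO (1.66, SE 0.20, adjusted p = 2.5e-10). All mice on cdHFD exceeded all mice on NC at 3 of 6 ZTs in WT and at 5 of 6 in KO. At ZT2 in WT on cdHFD the 2 males had 43.4 and 45.8 CPM and the 2 females 6.48 and 12.6 CPM. The mRNA of Atf4, the factor upstream of both genes, had a median of 116 CPM on NC and 104 CPM on cdHFD in WT, with overlapping ranges (85.4 to 158 CPM and 73.1 to 174 CPM).

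The cell type markers of the liver moved with the diet too. All 6 hepatocyte markers were lower on cdHFD in both genotypes, with a summed level of 102817 to 211138 CPM on NC and 53697 to 90442 CPM on cdHFD in WT, and 89576 to 212060 CPM and 48551 to 85622 CPM in KO. All 6 macrophage markers were higher, from 190 to 519 CPM to 914 to 2375 CPM in WT and from 160 to 520 CPM to 1299 to 2762 CPM in KO. All 6 stellate and fibroblast markers and all 3 neutrophil markers measured were also higher in both genotypes, as were 4 of 5 T cell markers in WT and 3 of 5 in KO, and 2 of 5 cholangiocyte markers in WT and 3 of 5 in KO. Of the 5 endothelial markers, 3 were higher and 1 was lower in each genotype. The median of the endothelial sum was 136 CPM on NC and 146 CPM on cdHFD in WT, and 129 and 130 CPM in KO. Of the 4 B and plasma cell markers measured, 0 passed in WT and 2 were lower in KO. No measured marker was at 0 in any arm. In whole liver, fewer cells of a type and less RNA per cell cannot be told apart, and the part of these shifts in the diet differences of the 10 genes was not tested. Markers also differed by genotype, with medians of the hepatocyte sum of 155654 CPM in WT and 112738 CPM in KO on NC, where 1 of 6 markers was lower in KO. The fall of this sum was not shared by the list, whose median log2 fold change was 0.08, with a range from -0.83 to 0.19. The cholangiocyte sum had medians of 51.1 CPM in WT and 89.9 CPM in KO on NC (2 of 5 markers higher in KO) and of 104 and 225 CPM on cdHFD (3 of 5 higher). On cdHFD, 5 of 6 stellate and fibroblast markers and 2 of 3 neutrophil markers were also higher in KO. Of the 6 macrophage markers on cdHFD, 1 was higher and 1 lower in KO, and 1 of 6 hepatocyte markers was lower. The part of these shifts in the genotype differences of the 10 genes was not tested either.

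On cdHFD, no difference between KO and WT livers passed a test in any of the 10 genes. Averaged over the day, 0 of 10 members passed in edgeR, 0 in DESeq2, and 0 at an unadjusted p under 0.05, against 4.62% of all genes called higher and 4.99% called lower. Trib3 had a median of 25.2 CPM in WT and 36.7 CPM in KO (log2 fold change 0.25, SE 0.22, adjusted p = 0.58), and Ddit3 13.9 CPM and 17.98 CPM (0.25, SE 0.17, adjusted p = 0.43). Among the chaperones and Xbp1 the log2 fold changes lay between -0.14 for Hyou1 and 0.11 for Dnajb9. At single ZTs, 0 of 60 tests passed in edgeR (2 at an unadjusted p under 0.05, Dnajb9 and Pdia4 at ZT2), where 2.13% of all genes passed at 1 or more ZTs. Amplitude passed for 0 of 4 members (11.7% of such genes) and phase for 0 of 3 (14.8%).

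Whether the genotype difference depended on diet was tested over all 96 libraries. Of the 10 members, 0 were called higher, against 1.04% of all genes, and 0 lower, against 2%, by edgeR, with 0 calls in DESeq2 and 2 members, Sdf2l1 and Trib3, at an unadjusted p under 0.05. For Trib3 the KO against WT difference was -0.76 on NC and 0.25 on cdHFD, and the interaction was 1.07 (SE 0.37, adjusted p = 0.097). Without the discordant libraries it was 1.68 (SE 0.38, adjusted p = 0.0020), and in males alone 1.75 (adjusted p = 0.020). For Sdf2l1 the interaction was -0.33 (SE 0.16, adjusted p = 0.27).

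Both sexes were pooled above. Over all 24 groups, 3 of 10 members were higher in males, against 8.24% of all genes, and 1 was lower, against 8.99%. Atf4 was higher in males (log2 difference 0.18, SE 0.05, adjusted p = 0.0024), with medians of 130 CPM in 12 males and 109 CPM in 12 females of WT on NC and a higher male median in each of the other 3 arms. Ddit3 was higher in males (0.40, SE 0.12, adjusted p = 0.011), most visibly in WT on cdHFD with medians of 19.7 CPM in 13 males and 11.6 CPM in 11 females. Xbp1 was higher in males by 0.15 (SE 0.05, adjusted p = 0.026), although in WT on NC and WT on cdHFD the male median was not above the female one. Pdia4 fell by 0.16 in males against females (SE 0.05, adjusted p = 0.029). With 1 replicate of each group left out in turn, 0 to 3 members passed. In most groups replicates 1 and 2 were males and replicates 3 and 4 females, so each such run also held fewer mice of 1 sex. Whether the lost calls came from this or from small differences cannot be told apart. When the discordant libraries were left out, 4 members were higher and 0 lower in males, with Trib3 added (0.67, SE 0.14, adjusted p = 0.00020, against 0.35, SE 0.18, adjusted p = 0.18, with them) and Pdia4 no longer passing (adjusted p = 0.051). Of the 15548 genes tested, 1251 were then higher and 1396 lower in males, against 1281 and 1398 with all libraries.

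The wider pathway was described with 4 lists of genes that hold none of the 10 members. The counts stand beside the shares of all genes given above, 27% lower and 28.7% higher with diet in WT and 29.6% lower and 32.4% higher in KO. Of 16 ER chaperones and folding enzymes, 13 fell and 1 rose with cdHFD in WT, and 13 fell and 1 rose in KO, with median log2 fold changes of -0.27 and -0.35. Among these were Calr, the lectin chaperone calreticulin (-0.53 in WT and -0.68 in KO), Hsp90b1, the ER Hsp90 (-0.50 and -0.56), Sil1, the nucleotide exchange factor of BiP (-0.57 and -0.90), and Ero1lb, an oxidase that feeds disulfide formation (-0.70 and -0.92). Of 15 genes of ER-associated degradation and translocation, 8 fell and 4 rose in WT and 7 fell and 4 rose in KO, with Derl2 (-0.57 and -0.71), Os9 (-0.51 and -0.55), Sel1l (-0.65 and -0.55), and Edem1 (-0.35 and -0.45) among the lower ones. Of 20 targets of ATF4 and the integrated stress response, 15 rose and 1 fell in WT and 18 rose and 1 fell in KO, with medians of 1.12 and 1.01. These included the factor Atf3 (3.90 and 4.23) and the secreted stress hormones Fgf21 (4.28 and 4.19) and Gdf15 (2.01 and 2.22). Psat1, an enzyme of serine synthesis, was at 3.48 in WT, and Slc7a11, the cystine transporter, at 6.41 in KO. Of 10 sensors and regulators, 4 rose and 3 fell in WT and 5 rose and 3 fell in KO, and the 4 and 4 higher genes of degradation and translocation and the 3 and 3 lower sensors and regulators were near the shares of all genes. Eif2ak3, which encodes PERK, rose by 0.68 and 1.04, and Creb3l3, a liver factor related to ATF6, fell by 0.40 and 0.38. Without the discordant libraries, 12 chaperones and folding enzymes and 7 degradation and translocation genes fell in WT. In KO, 3 degradation and translocation genes and 17 ATF4 targets then rose. Over all genes tested, 3734 then fell in WT and 5019 rose in KO, against 4196 and 5031 with all libraries.

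**Figure D5:**
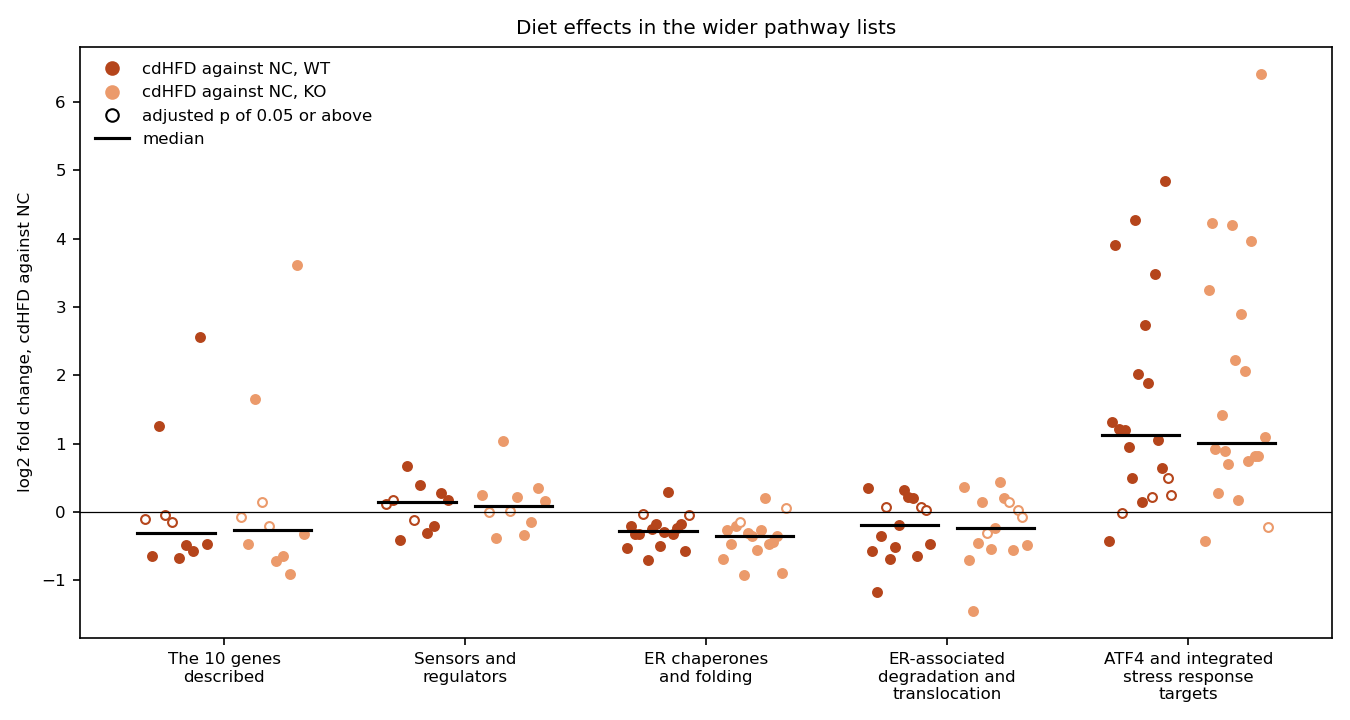
Log2 fold change with diet of each gene in the 4 pathway lists and of the 10 members, in WT and in KO, with the median of each list as a bar. The ATF4 targets have medians of 1.12 and 1.01, and the ER chaperones and folding enzymes medians of -0.27 and -0.35.

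Fewer genes of these lists passed by genotype, where 7% of all genes were higher and 5.61% lower in KO on NC, and 4.62% higher and 4.99% lower on cdHFD, shares at which a list of this size holds about 1 gene in each direction. On NC, 1 of the 20 ATF4 targets rose and 4 fell, among them Asns, asparagine synthetase (-2.52, SE 0.48, adjusted p = 0.00016), and Atf5, a transcription factor of the same program, which rose by 0.70 (SE 0.13). Asns was at -2.62 without the discordant libraries. Its interaction with diet was 2.01 (SE 0.51, adjusted p = 0.012), of the same sign as that of Trib3. Of the 16 chaperones and folding enzymes 1 rose (Sil1, 0.29) and 2 fell (Txndc5, -0.25, and Dnajc3, -0.24), of the 15 degradation and translocation genes 1 rose (Ssr1, 0.18) and 1 fell (Herpud1, -0.58), and of the 10 sensors and regulators 1 rose (Eif2s1, 0.29) and 2 fell (Creb3l3, -0.22, and Atf6, -0.20). On cdHFD, 3 of the ATF4 targets rose (Atf5, 0.42, Ppp1r15a, 0.44, and Nupr1, 0.65), 2 chaperones and folding enzymes fell (Fkbp2, -0.26, and Ero1lb, -0.39), and Creb3l3 fell by 0.19. Without the discordant libraries, 2 ATF4 targets rose on NC and 4 on cdHFD. Of the degradation and translocation genes, 2 then fell on NC and 1 rose on cdHFD, where 1 sensor or regulator also rose. Over all genes, calls on cdHFD were then 1019 higher and 1005 lower, against 718 and 776. A daily rhythm on NC was called for 8 of the 16 chaperones and folding enzymes in WT and 5 in KO, and for 8 of the 20 ATF4 targets in WT and 1 in KO, against 22.5% of all genes in WT and 11.1% in KO. The difference between these counts was not tested.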

How the data were processed

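The authors made BRB-seq libraries, aligned the reads to mm10, and deposited unnormalized read counts per gene and mouse. Their notes name STAR, with HTSeq and featureCounts for counting. The collapse of reads by molecular identifier is not given in the sources used here, so precision from depth covers counting error only. Entries for unassigned reads (not aligned, 14.8% to 34.0% of reads, and no feature, 5.65% to 11.3%) were left out. Groups were taken from the labels.

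A gene was tested if its counts in the 96 libraries summed to 100 or more, in R 4.3.3 with edgeR 4.0.16 (TMM, quasi-likelihood test, Benjamini-Hochberg adjustment over all 15548 genes). Models held ZT as a factor, and a group of 24 levels for sex. Single ZTs, 24-hour and 12-hour terms were fitted as described with the results. Rhythm parameters used DESeq2 1.42.0's variance-stabilized values. MetaCycle, CircaN, and DryR were not run. CircaCompare was refitted by least squares, for amplitude where a gene was rhythmic in at least 1 arm and for phase in both. The genotype effect on NC, the 24-hour and 12-hour terms in KO on NC, and phase and amplitude for diet in WT were tested on simulated data. Recovered were 94% of 1.5-fold changes, and 95% of 24-hour and 80% of 12-hour rhythms of amplitude 0.5. For diet, 98.5% of shifts by 6 hours and 94% of amplitudes of 0.2 against 0.8 were recovered. The phase test, run there without the limit to rhythmic genes, also called 2736 flat genes, of 15548 genes run.

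The members, picked by name with no threshold on values, and the lists were chosen with earlier results of these data known. Named genes were the members, up to 4 genes of smallest p from each list and comparison, Arntl, and the 5 genes most like Hspa5 and Trib3. Positions are from RefSeq (10 of 10 symbols matched). Alternatives were DESeq2, its size factors, other filters, sex, single sexes, left-out replicates, and left-out discordant libraries.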

Additional observations from a re-analysis of the deposited data

Results flagged for a closer look

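In 18 of 240 groups of 4 mice (7.5%, where chance gives about 1 in 20), the highest or the lowest mouse stood apart by Dixon's test, 13 high and 5 low, and 3 of the 18 were discordant libraries. All 10 genes had at least 1 such value.

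Several of them came from the same mouse. The male replicate 2 of WT on NC at ZT22 was high for Creld2 (121 CPM, others 38.7 to 41.2), Sdf2l1 (116 CPM, others 48.2 to 53.8), and Pdia4 (196 CPM, others 131 to 139). The male replicate 4 of KO on cdHFD at ZT2 was high for Ddit3 (51.05 CPM, others 14.2 to 17.8) and Atf4 (156 CPM, others 100.2 to 103). Trib3 in KO on NC was high in replicate 4 at ZT2 (3.81 CPM), in replicate 4 at ZT6 (15.0 CPM), and in replicate 3 at ZT10 (17.5 CPM), the last pair being discordant libraries.

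The other high values were Hspa5 at 354 CPM in KO on cdHFD at ZT6, Dnajb9 at 53.5 CPM in WT on cdHFD at ZT10, Creld2 at 47.7 CPM in WT on cdHFD at ZT18, and Ddit3 at 6.34 CPM in KO on NC at ZT22 and at 22.1 CPM in WT on cdHFD at ZT10, the latter a discordant library. The low values were Dnajb9 at 78.2 CPM in KO on NC and 75.8 CPM in KO on cdHFD, both at ZT14, Xbp1 at 358 CPM in WT on NC at ZT22, Hyou1 at 3.69 CPM in KO on cdHFD at ZT2, and Atf4 at 96.3 CPM in WT on cdHFD at ZT18.

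The peak of Trib3 in WT lay at another time on cdHFD than on NC, by -8.20 h in the CircaCompare model.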

How the results depend on the processing

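No called value of a member changed sign in any alternative run. The genotype count on NC (1 member) was 2 with sex as a covariate, 2 in males alone, 2 without the discordant libraries, and 0 without the library of lowest depth, an alternative chosen after seeing the data. The genotype by diet count (0) was 1 in males alone and 1 without the discordant libraries, and the count over single ZTs on NC (0) was 3 without them. Calls over all genes grew without them too. For genotype on NC they were 1439 higher and 1217 lower, against 1088 and 872. For genotype by diet they were 328 higher and 591 lower, against 162 and 311. The 24-hour count in KO was 2 on NC and 0 on cdHFD by edgeR's adjusted p (4 and 3 as reported), and 1 on cdHFD by JTK_CYCLE alone. The 12-hour count was 2 in WT on NC with sex as a covariate (1 as reported), and without the discordant libraries 1 in KO on NC (2 as reported) and 0 in KO on cdHFD (3 as reported). The amplitude count without the discordant libraries was 2 for KO against WT on NC (1 as reported), 0 for diet in WT (1), and 4 for diet in KO (2). With all libraries, these 3 counts were 0 by adjusted p. JTK_CYCLE was not run without the discordant libraries, which leave groups of unequal size. The cause of these shifts was not tested.

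With 1 replicate of each group left out in turn, the counts ran from 0 to 1 for genotype on NC, from 7 to 7 for diet in WT, from 6 to 7 for diet in KO, and from 0 to 3 for sex. The 24-hour counts ran from 2 to 5 (WT) and 2 to 4 (KO) on NC and from 3 to 4 and 0 to 3 on cdHFD, and the 12-hour counts from 0 to 2 in WT on NC and from 0 to 0 in KO on both diets. Amplitude counts ran from 0 to 1 for genotype on NC, from 0 to 1 for diet in WT, and from 1 to 3 for diet in KO, and phase counts from 0 to 1 for diet in each genotype. All other counts stayed at 0. In most groups replicates 1 and 2 were males, so these runs also changed the balance of the sexes. No paired analysis was possible because the replicate numbers were given in accession order and pair no mice. Depth limited Hyou1, at 19 to 94 counts per library, and Ddit3 and Trib3 on NC, at 10 and 3 counts at their lowest.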

Other observations

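The profile of Hspa5 over the 24 means by arm and ZT (log2 CPM, 6903 genes with a mean of at least 10 CPM) was most like those of Creld2 (r = 0.93), Hspa13, another Hsp70 family member (0.93), Mesd, an ER chaperone of lipoprotein receptors (0.91), Slc35e1 (0.88), and Tfg, a protein of ER exit sites (0.88). Without the discordant libraries these were still its 5 highest, at 0.93, 0.93, 0.92, 0.89, and 0.89. The profile of Trib3 was most like those of Serpina3g (0.95), Mafk (0.94), Il1rn, the interleukin 1 receptor antagonist (0.94), Ifrd1 (0.94), and Ifngr2, a chain of the interferon gamma receptor (0.94). With the discordant libraries left out, Serpina3g (0.94), Mafk (0.94), and Il1rn (0.93) ranked 1, 2, and 5, and Ifngr2 (0.93) and Ifrd1 (0.92) ranked 7 and 10. The means share libraries, diets, and times of day, so these values are descriptions only.

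Within groups, across the deviations of 96 mice from their group means, the pairs of members with the highest correlation were Hspa5 with Creld2 (r = 0.77) and Atf4 with Ddit3 (r = 0.65). Over the 24 means, Atf4 and Ddit3 had r = -0.17. Pdia4 and Trib3 ran opposite over the means (r = -0.93) and had r = -0.12 within groups. Values of a pair come from the same libraries and share their depth.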
